A study of Oryza sativa Indica Group with 18 samples.

Results

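Seedlings of the indica rice cultivars Annapurna and IR64 were compared for how far each changed its transcript levels when heated to 42 °C. The quantity described is a difference of 2 responses: the log2 change in Annapurna at 42 °C over its control, minus the log2 change in IR64 at 42 °C over its control. It draws on 12 of the 18 arrays of the study, in 4 groups of 3 arrays labelled as biological replicates, namely Annapurna at 42 °C, Annapurna control, IR64 at 42 °C and IR64 control. All seedlings were 7 days old, had been raised hydroponically, and gave RNA from the whole plant. The 42 °C groups were held at 37 °C for 1 h as a pre-treatment and then at 42 °C for 2 h, at about 40% relative humidity. The controls stayed in growth medium at 28 ± 1 °C for 3 h, so heated and control seedlings of both cultivars were sampled after the same total time. The study title sets a tolerant cultivar against a susceptible one without saying which is which, and each cultivar stands for 1 genotype only. In whole seedlings, fewer cells of a type and less RNA per cell cannot be told apart.

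Heated plant cells release heat stress transcription factors, which switch on genes for chaperones: small heat shock proteins that hold unfolding proteins, and larger HSP100, HSP90 and HSP70 machines that refold them. Late embryogenesis abundant (LEA) proteins and dehydrins protect cells that lose water, in seeds and in stressed seedlings, and are induced by the hormone abscisic acid (ABA). JAZ proteins repress the response to a different hormone, jasmonate, and their genes are themselves switched on by it, while nicotianamine synthases make the chelator that grasses use to move iron and to build the iron-scavenging compounds their roots secrete.

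Values are the deposited intensities per probe set, and 16 was added before taking log2. Of 57258 probe sets tested, 20011 had a group mean above an intensity of 50 in both cultivars, in at least 1 of each cultivar's groups, and these are called above the floor here. A difference was called at a limma adjusted p under 0.05 with at least a 2-fold (1 log2) size. A gene is said to respond higher or lower in Annapurna where its difference of responses was called, and to have risen or fallen in a cultivar where that cultivar's own response was called. Log2 differences are given ± SE from the fit and intensities as mean ± SD (n = 3 arrays in each group). Of the tested probe sets, 22436 matched exactly 1 gene, and a gene is represented by its probe set with the highest mean.

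The 12 arrays had medians within 0.036 log2 of each other. Pearson's r between arrays, taken over all probe sets as a description, was 0.997 to 0.999 within groups and 0.961 to 0.983 between groups. The log2 difference between the 3' and the 5' probe sets of actin, a sign of RNA integrity and labelling, was 5.18 ± 0.14 in Annapurna at 42 °C and 5.48 ± 0.64 in its control, and 5.09 ± 0.09 in IR64 at 42 °C and 4.73 ± 0.22 in its control. For glyceraldehyde phosphate dehydrogenase it was 1.55 ± 0.06 in Annapurna at 42 °C and 2.70 ± 0.13 in its control, and 1.56 ± 0.09 in IR64 at 42 °C and 2.25 ± 0.32 in its control, and for cyclophilin 0.76 ± 0.14 in Annapurna at 42 °C and 0.90 ± 0.11 in its control, and 0.73 ± 0.11 in IR64 at 42 °C and 1.03 ± 0.15 in its control. The last 2 were lower on average at 42 °C in both cultivars, by more in Annapurna for the dehydrogenase and by more in IR64 for cyclophilin, and their part in the results was not tested. The shoot marker genes measured were 4 of 7 planned, RBCS, CAB2R, CHLP and PORA, and also RBCS1, which was not planned. The 4 averaged above 50 in every group, and RBCS1 was below 16 on every array. The summed intensity of the 5 was 98650 to 103871 in Annapurna at 42 °C and 90206 to 94923 in its control. In IR64 it was 92421 to 95118 at 42 °C and 71683 to 77126 in the control. IR64 control replicate 3 stood apart from its group in the grain genes AMY1.1 and EP3A and in several diterpenoid genes described below. For several of these genes results are given with and without it.

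The response to 42 °C differed between the cultivars at 1273 of the 20011 probe sets above the floor, 6.36% of them, with 485 (2.42%) higher and 788 (3.94%) lower in Annapurna. By gene, 805 of 13555 genes above the floor were called (5.94%), 291 higher (2.15%) and 514 lower (3.79%). The split by direction depends on scaling. The median difference over all these genes was -0.14 log2, and with quantile normalization, which removes that shift, it was -0.02, with 390 genes higher (2.88%) and 349 lower (2.57%). The 12 arrays give 8 residual degrees of freedom for the spread between replicates. The heat response within a cultivar was called at 2363 probe sets above the floor in Annapurna (11.8%), of which 1041 rose (5.2%) and 1322 fell (6.61%), and at 3149 in IR64 (15.7%), of which 1787 rose (8.93%) and 1362 fell (6.81%). With quantile normalization 1387 rose and 1641 fell in IR64. Among genes above the floor, the median response was -0.03 in Annapurna and 0.10 in IR64.

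Where the responses differed, the change was more often called in IR64 alone than in Annapurna alone. Of the 485 probe sets higher in Annapurna, 227 (46.8%) fell in IR64 without a called change in Annapurna, 73 (15.1%) rose in Annapurna without a called change in IR64, and 57 (11.8%) fell in both. Of the 788 that were lower, 304 (38.6%) rose in IR64 without a called change in Annapurna, 172 (21.8%) fell in Annapurna without a called change in IR64, and 75 (9.52%) rose in both. Called changes in opposite directions were rare: 6 probe sets rose in Annapurna and fell in IR64, and 10 fell in Annapurna and rose in IR64. A further 12 of the higher probe sets rose in both cultivars and 54 of the lower ones fell in both. In the remaining 110 higher and 173 lower probe sets neither cultivar's own response was called.

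**Figure D1:**
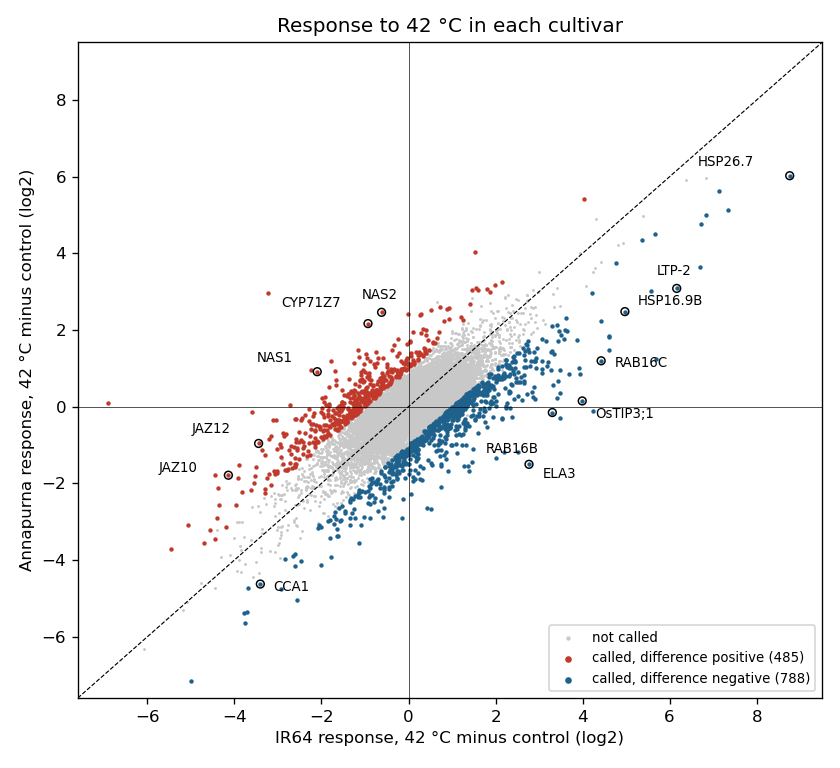
The Annapurna response to 42 °C (vertical axis, log2) against the IR64 response (horizontal axis, log2) for the 20011 probe sets above the floor; coloured points have a called difference of responses, 485 positive (red) and 788 negative (blue), circled points are named, and the dashed line marks equal responses. The 2 axes rest on separate arrays, and the called points lie at least 1 log2 from the dashed line because the call requires it.

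**Figure D2:**
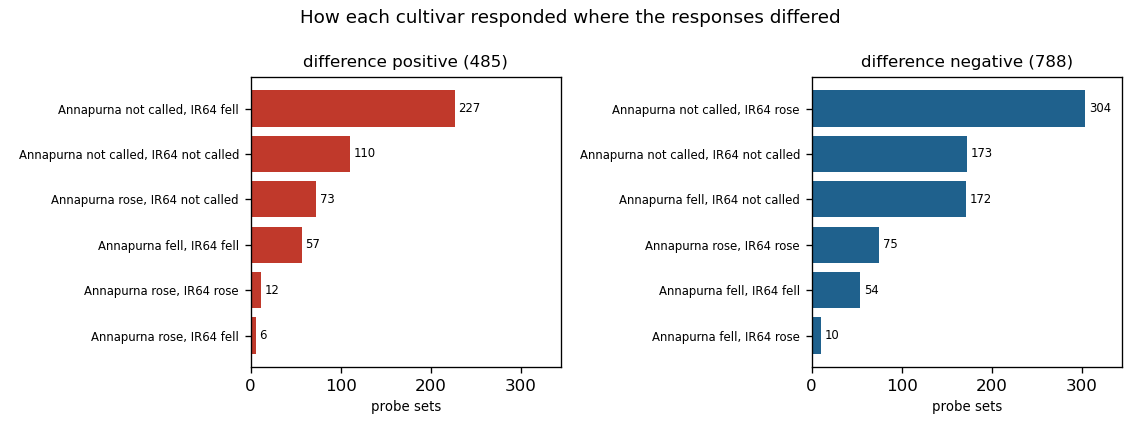
Number of called probe sets by the response called in each cultivar, for positive differences (left, 485) and negative ones (right, 788). The longest bar on each side is a change called in IR64 and not in Annapurna, 227 and 304 probe sets.

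A difference of responses can come with cultivars that stood apart before heat or only after it. Between the controls, 1297 probe sets above the floor differed (6.48%), and at 42 °C 1102 differed (5.51%). Of the 788 probe sets that responded lower in Annapurna, 257 were apart between the cultivars in the controls only, 208 at 42 °C only, 37 at both and 286 at neither. Of the 485 that responded higher, 132 were apart in the controls only, 124 at 42 °C only, 35 at both and 194 at neither.

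Most genes of the LEA and dehydrin list responded lower in Annapurna. The list was matched by name and includes OsPM19L1, which encodes a stress-related membrane protein. Of 9 measured members, 8 were above the floor, of which 6 were lower and none higher, against 3.79% lower over all genes. The median difference was -2.84, against -0.14 over all genes. In Annapurna 2 rose and 2 fell, with a median response of 0.49. In IR64 7 of these 8 rose and none fell, with a median response of 3.37. Over all genes above the floor, 4.26% rose and 6.64% fell in Annapurna, and 7.71% rose and 6.43% fell in IR64. With quantile normalization 6 were again lower, with a median of -2.73. Among the lower genes, rab25 passed the floor in Annapurna only through its control and in IR64 only through its heated group. For rab25 the filter is therefore tied to the difference counted here.

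RAB16B, a dehydrin gene, had intensities of 759, 806 and 828 in Annapurna at 42 °C and 814, 884 and 974 in its control. In IR64 it had 1962, 2189.9 and 2306 at 42 °C and 187, 190.3 and 236 in the control. The 2 Annapurna groups overlapped, while in IR64 every 42 °C array lay far above every control array. Its difference of responses was -3.46 ± 0.14 (limma adjusted p = 5.63e-07).

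RAB16C, its close relative, had 207, 214 and 215 in Annapurna at 42 °C and 85.7, 87.2 and 77.7 in its control, against 2034, 2379 and 2434 in IR64 at 42 °C and 72.3, 70.3 and 143 in the IR64 control. It rose in both cultivars, and the IR64 arrays at 42 °C were the highest of the 4 groups by a wide margin. The difference of responses was -3.23 ± 0.28 (limma adjusted p = 5.64e-05).

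RAB21, a dehydrin gene named for its response to abscisic acid, had 7128, 6845 and 6143 in Annapurna at 42 °C and 2938, 3270.4 and 3901 in its control. In IR64 it had 16297, 19962 and 12037 at 42 °C and 1031, 916 and 1149 in the control. The groups did not overlap in either cultivar, yet the Annapurna response of 1.00 fell just short of the 2-fold call and the IR64 response was 3.92. The difference was -2.92 ± 0.25 (limma adjusted p = 4.71e-05), and a separate probe set of RAB21 was also called lower.

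OsPM19L1, which encodes a stress-related membrane protein, had 756, 749 and 689.5 in Annapurna at 42 °C and 408, 372 and 607 in its control, against 3909, 4053 and 4023 in IR64 at 42 °C and 323, 344 and 399 in the IR64 control. The controls of the cultivars were close, and the cultivars separated at 42 °C. The difference was -2.77 ± 0.21 (limma adjusted p = 2.81e-05).

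The gene rab25, at low intensity throughout, fell in Annapurna and rose in IR64. It had 14.7, 15.1 and 11.4 in Annapurna at 42 °C and 58.97, 53.0 and 42.1 in its control, and 127, 130.2 and 131 in IR64 at 42 °C and 10.3, 20.4 and 18.12 in the IR64 control. The Annapurna groups and the IR64 groups each stood apart without overlap, in opposite order. Its difference of -3.36 ± 0.19 was called under each added constant but moved with it, to -4.79 with 1 added and -1.84 with 64. The other called member, LEA19, stood at -1.49 ± 0.28, and the uncalled RAB16D and Dhn1 at -0.93 ± 0.28 and -0.47 ± 0.07.

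RAB16B, RAB21 and RAB16C lie close together on chromosome 11, RAB16B next to RAB21 with no gene between them in the reference gene order and RAB16C 2 genes from RAB16B. The probe sets of RAB21 and LEA19 carry a suffix that marks probes matching several transcripts, so related genes can add to their signal. On the other 6 arrays of the study, from seedlings held at 37 °C and outside this difference, RAB16B averaged 11991 ± 335 in Annapurna and 1003 ± 21.7 in IR64, and RAB21 10169 ± 664 in Annapurna and 3205 ± 146 in IR64. RAB16B was more intense in Annapurna at 37 °C than in any group of the 42 °C comparison.

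Of 16 grain genes measured, 4 were above the floor, and 2 of these, OsTIP3;1 and LTP-2, responded lower in Annapurna. Over all genes above the floor, 3.79% were lower. Both genes passed the floor only through their 42 °C groups, so the filter is tied to the response counted here. Without the floor 4 of the 16 were lower. OsTIP3;1, a water channel of the vacuole membrane in seeds, had 56.1, 58.1 and 50.4 in Annapurna at 42 °C and 44.8, 50.1 and 48.8 in its control. In IR64 it had 871, 925 and 891 at 42 °C and 43.7, 38.2 and 42.2 in the control. Only the IR64 arrays at 42 °C stood high, and the difference was -3.84 ± 0.09 (limma adjusted p = 3.62e-08). LTP-2, a lipid transfer protein gene, had 253, 298 and 238 in Annapurna at 42 °C and 17.6, 17.7 and 14.9 in its control, and 2145, 2012 and 2028 in IR64 at 42 °C and 14.3, 12.4 and 12.4 in the IR64 control. It rose in both cultivars, the IR64 arrays at 42 °C stood far above the Annapurna arrays at 42 °C, and the difference was -3.08 ± 0.11 (limma adjusted p = 3.57e-07).

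AMY1.1, the main starch-degrading amylase of the germinating grain, was below the floor in both Annapurna groups and lies outside the main account. It had 5.47, 5.47 and 5.49 in Annapurna at 42 °C and 5.49, 5.48 and 124 in its control, against 8767, 9204 and 10078 in IR64 at 42 °C and 37.9, 41.6 and 3532 in the IR64 control. Control replicate 3 of IR64 stood far above the other IR64 controls, and control replicate 3 of Annapurna was also the high one of its group. The difference was -6.29 ± 1.99 (limma adjusted p = 0.0202), -8.29 without IR64 control replicate 3, and with quantile normalization it missed the threshold (adjusted p = 0.0594). A related amylase, AMY1.3, was also below the floor in both Annapurna groups, at 8.49, 6.53 and 8.91 at 42 °C and 10.2, 10.4 and 9.24 in the control, against 86.2, 95.8 and 97.2 in IR64 at 42 °C and 10.5, 10.4 and 10.5 in the IR64 control. Its difference was called under each added constant, but its size depended on it, at -3.32 with 1, -2.15 with 16 and -1.11 with 64. EP3A, a cysteine protease of the germinating grain, was not called (-0.65 ± 0.71, limma adjusted p = 0.446), and was called at -1.42 without IR64 control replicate 3. Both Annapurna groups of EP3A were near background, and its difference was -1.34 with 1 added and -0.23 with 64. In IR64 EP3A also averaged below the floor, at 46.3 ± 5.48 at 42 °C and 39.3 ± 54.6 in the control.

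Summed over 6 grain marker genes of 9 planned, among them AMY1.1, AMY1.3, EP3A, LTP-2 and the globulin gene GLB1, the intensity was 3207 to 3520 in Annapurna at 42 °C and 826 to 1116 in its control, and 13798 to 15274 in IR64 at 42 °C and 543 to 4107 in its control. In Annapurna at 42 °C 2 of the 6 averaged above 50 and 4 were below 16 on every array; in IR64 at 42 °C 4 averaged above 50 and 1 was below 16 on every array. Most of the sum was AMY1.1 in IR64 at 42 °C (9350 ± 667) and GLB1 in Annapurna at 42 °C (3122 ± 167). GLB1 itself averaged 2810 ± 190 in IR64 at 42 °C, no higher than in Annapurna. On IR64 control replicate 3, AMY1.1 alone had 3532. Summed grain transcripts were highest in the same group as most LEA and dehydrin genes, and their part in those results was not tested.

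**Figure D3:**
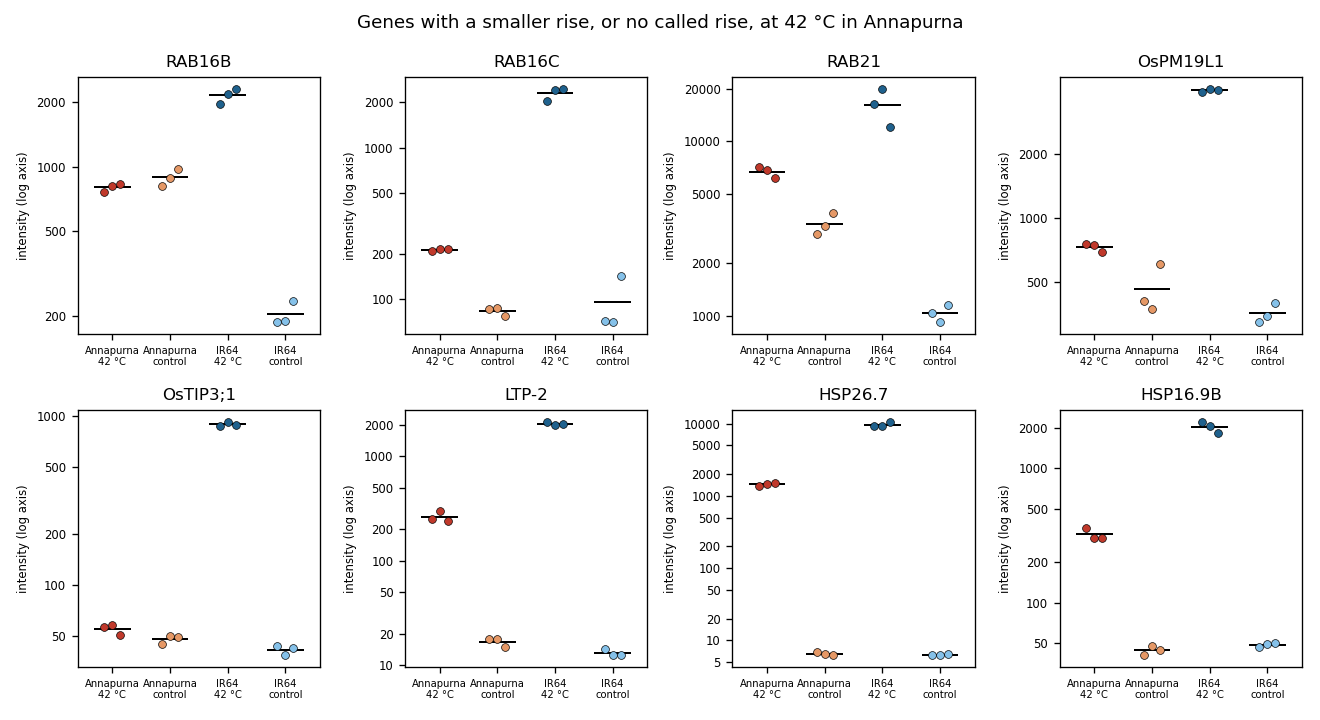
Intensity (log axis, a scale of its own in each panel) of 8 genes that responded lower in Annapurna, on each of the 3 arrays of Annapurna at 42 °C, Annapurna control, IR64 at 42 °C and IR64 control; points are arrays and lines are group means. In every panel the IR64 arrays at 42 °C stand above the other 3 groups.

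Most small heat shock protein genes rose in both cultivars, and several responded lower in Annapurna. Of 19 measured, 15 were above the floor, of which 13 rose in Annapurna and 12 in IR64, with none falling. Their median responses were 2.59 in Annapurna and 2.78 in IR64. The difference of responses was called for 5 of the 15, all lower, against 3.79% lower over all genes above the floor. The median was -0.70 against -0.14 over all genes, and 5 were again lower with quantile normalization. Without the floor, 8 of the 19 were lower. The share over all 57258 probe sets tested was 1.94%, but it counts probe sets and not genes, and most of them lie below the floor.

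HSP26.7, a chloroplast member, had 1377, 1455 and 1525 in Annapurna at 42 °C and 6.93, 6.52 and 6.23 in its control, and 9191, 9164 and 10603 in IR64 at 42 °C and 6.26, 6.19 and 6.38 in the IR64 control. Both controls were near background and both heated groups far above them, with IR64 the higher. The difference was -2.73 ± 0.09 (limma adjusted p = 1.57e-07). With controls this low the size of a difference can depend on the 16 that was added, and here it stood at -2.78 with 1 added and -2.68 with 64.

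HSP16.9B, a cytosolic member, had 360.2, 305 and 302 in Annapurna at 42 °C and 40.7, 48.0 and 45.0 in its control, against 2209.7, 2059 and 1823 in IR64 at 42 °C and 47.1, 49.5 and 50.6 in the IR64 control. Its controls were alike in both cultivars, and the difference of -2.49 ± 0.12 lay in the heated arrays (limma adjusted p = 2.2e-06). HSP23.2, of the endoplasmic reticulum (-1.96 ± 0.12), HSP18.6 (-1.73 ± 0.21) and HSP17.7 (-1.35 ± 0.10) were also lower, HSP23.2 at -1.26 with 64 added. For these 3 the Annapurna controls averaged 69.0, 274 and 353, above the IR64 controls at 15.4, 112 and 227. At 42 °C they averaged 2275, 583 and 726 in Annapurna, against 3284, 850.2 and 1228 in IR64.

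Not every strongly induced member differed. HSP16.9A, a cytosolic relative of HSP16.9B, rose by 5.92 in Annapurna and 6.38 in IR64, and its difference of -0.46 ± 0.15 was under the 2-fold size. HSP18.8 stood at 0.82 ± 0.07, positive and under that size too. HSP18.1 is outside the main account because Annapurna stayed below the floor, at 30.1, 24.3 and 13.3 at 42 °C and 8.43, 5.66 and 5.18 in the control, against 11722, 11956 and 12562 in IR64 at 42 °C and 119, 105 and 138 in the IR64 control. It lies next to HSP17.7 on chromosome 3.

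Among larger chaperones, only HSP100 and related Clp genes were called lower, and no HSP90 or HSP70 gene was called. Of 11 HSP100, HSP90 and HSP70 genes above the floor (13 measured), 3 were lower and none higher, against 3.79% lower over all genes. Their median was -0.31, and 2 were lower with 64 added or with quantile normalization. In Annapurna 2 of the 11 fell and none rose, and in IR64 2 rose and 1 fell. CLPB1, the cytosolic HSP100 disaggregase also known as HSP101, had 306, 308 and 324 in Annapurna at 42 °C and 181, 197 and 249.8 in its control, and 401, 362 and 354 in IR64 at 42 °C and 106, 115 and 114 in the IR64 control. The groups did not overlap within either cultivar, but the response was called in IR64 only (1.60) and not in Annapurna (0.56). The difference of -1.05 ± 0.14 (limma adjusted p = 0.000703) sat near the 2-fold limit and fell short of it at -0.87 with quantile normalization, -0.84 with 64 added, -0.92 without Annapurna control replicate 3 and -0.99 without IR64 42 °C replicate 1. CLPD1 (-1.41 ± 0.23) and CLPC2 (-1.08 ± 0.12), genes of chloroplast Clp chaperones, were the others called lower. HSP81-3, an HSP90 gene, was not called and stood at -0.31 ± 0.07.

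On the 37 °C arrays CLPB1 averaged 8579.5 ± 393 in Annapurna and 5953 ± 47.3 in IR64, far above its level at 42 °C in both. None of 15 endoplasmic reticulum folding genes above the floor was called, with a median of 0.13. Of 14 heat stress factor genes above the floor (20 measured), 2 were lower and none higher, against 3.79% lower over all genes. HSFB2A, a factor of the repressor class, had 171, 160.4 and 153 in Annapurna at 42 °C and 1375, 1390.4 and 1153 in its control, against 302, 355 and 373 in IR64 at 42 °C and 718, 839 and 944 in the IR64 control. It fell in both cultivars, further in Annapurna, by a difference of -1.66 ± 0.16 (limma adjusted p = 0.000109), and a separate probe set of HSFB2A was also called lower. HSFA6B stood at -1.49 ± 0.19, with -0.88 when 64 was added, which left 1 of the 14 called.

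The A2 factors, main activators of heat genes in plants, were not called above the floor. HSFA2D was at 0.20 ± 0.18 (limma adjusted p = 0.348) and HSFA2C at -0.23 ± 0.13 (limma adjusted p = 0.139), both uncalled, and the loci of both also carry the symbols of another gene in the annotation. HSFA2A, below the floor in all 4 groups, stood at -1.003 ± 0.14, a call lost with 64 added (-0.47), with quantile normalization (-0.87) and without any 1 of 6 arrays: control replicate 1 of Annapurna (-0.95) or of IR64 (-0.92), 42 °C replicate 1 or 3 of Annapurna, and 42 °C replicate 1 or 2 of IR64. On the 37 °C arrays HSFA2A averaged 7124 ± 267 in Annapurna and 5953 ± 394 in IR64.

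Genes of ABA signalling were called in both directions. Of 67 measured, 60 were above the floor, 4 of them higher and 6 lower, with a median of -0.18. Over all genes 2.15% were higher and 3.79% lower. The higher count fell to 2 without IR64 control replicate 3, without Annapurna 42 °C replicate 1 or without IR64 42 °C replicate 1. The list holds, among others, the protein phosphatases 2C, a family in which some members switch off ABA signalling, and the SAPK kinases, which carry that signal.

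OsPP2C30 had 146, 149 and 159.6 in Annapurna at 42 °C and 799, 762 and 561 in its control, against 289.8, 283 and 255 in IR64 at 42 °C and 127, 162 and 189 in the IR64 control. It fell in Annapurna, whose control lay above the IR64 control, and the IR64 response of 0.75 was not called. The difference was -2.84 ± 0.21 (limma adjusted p = 2.16e-05). OsPP2C09 followed the same course, at 247, 278 and 261 in Annapurna at 42 °C and 1086, 1002 and 1066 in its control, and 405, 357 and 324 in IR64 at 42 °C and 343, 326 and 343 in the IR64 control, with a difference of -2.03 ± 0.10. In both genes the cultivars were called apart in the controls and not at 42 °C. OsPP2C06 (-1.04 ± 0.14), OsPP2C32 (-1.29 ± 0.15) and the kinase genes SAPK1 (-1.45 ± 0.08) and SAPK6 (-1.31 ± 0.13) were the other lower members.

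The higher members were OsPP2C61 (1.198 ± 0.15), OsPP2C12 (1.11 ± 0.24), OsPP2C15 (1.02 ± 0.16) and OsPP2C11 (1.06 ± 0.13). With 64 added 2 members of the list were higher, and OsPP2C61 stood at 0.69. OsPP2C12 was far more intense in Annapurna than in IR64 in both states, at 1993, 1756 and 1301 at 42 °C and 832, 668 and 998 in the control, against 88.4, 76.8 and 67.1 in IR64 at 42 °C and 85.3, 80.7 and 87.0 in the IR64 control. The IR64 groups overlapped. Its difference fell short of 2-fold when Annapurna control replicate 2 was left out (0.96), and likewise with Annapurna 42 °C replicate 1 left out (0.98).

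Other genes with the lowest differences of responses came from several families. ELA3 had 104, 102 and 102 in Annapurna at 42 °C and 301, 434 and 251 in its control, and 384, 471 and 381 in IR64 at 42 °C and 44.9, 55.2 and 40.4 in the IR64 control. It fell in Annapurna and rose in IR64, so that the order of the cultivars turned round between control and 42 °C. Its difference of -4.27 ± 0.24 was the lowest among named genes above the floor (limma adjusted p = 4.67e-06).

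OsSWEET15, a sugar transporter gene, had 46.2, 37.5 and 39.7 in Annapurna at 42 °C and 168, 132 and 117 in its control, against 90.8, 90.7 and 98.0 in IR64 at 42 °C and 24.0, 24.0 and 22.2 in the IR64 control. It too fell in Annapurna and rose in IR64, without overlap between any groups of a cultivar, and the difference was -2.90 ± 0.16 (limma adjusted p = 4.21e-06), and -1.79 with 64 added. OsSWEET2b fell by more, in both cultivars, with responses of -3.99 in Annapurna and -2.84 in IR64. Of 18 sugar transport and trehalose genes above the floor, 3 were lower and 1 was higher, against 3.79% and 2.15% over all genes. The higher count was 2 leaving out Annapurna control 3, Annapurna 42 °C 3 or IR64 42 °C 2. The third lower one was OsSWEET1b (-1.10 ± 0.13). The difference for OsSWEET2b was -1.14 ± 0.17, and -0.74 with 1 added in place of 16.

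PXG, which encodes a peroxygenase of the caleosin type, had 501, 530.0 and 536 in Annapurna at 42 °C and 541, 502 and 348 in its control, against 1877, 1687 and 1801 in IR64 at 42 °C and 250.0, 225 and 203 in the IR64 control. Its groups overlapped in Annapurna and were far apart in IR64, with a difference of -2.71 ± 0.20 (limma adjusted p = 1.95e-05). A gene for the E1 alpha subunit of pyruvate dehydrogenase, the locus LOC4340640, stood at -2.83 ± 0.20, with responses of -1.55 in Annapurna and 1.28 in IR64, and at -1.70 with 64 added. Among genes known by a locus number only, LOC4345700 was lowest at -4.36 ± 0.24 and LOC4332481 next at -3.70 ± 0.19. The value for LOC4345700 moved with the added constant, to -5.60 with 1 and -2.93 with 64. With 64 added LOC4332481 was the lower of these 2, at -3.07. LOC4345700 had 55.3, 60.03 and 41.3 in Annapurna at 42 °C and 60.4, 75.1 and 40.8 in its control, and 505, 477 and 439 in IR64 at 42 °C and 7.98, 12.2 and 9.55 in the IR64 control, so its Annapurna groups overlapped while in IR64 it rose, over a control near background.

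On the positive side, several jasmonate genes responded higher in Annapurna. Of 35 measured, 25 were above the floor, 6 of them higher and none lower, against 2.15% higher over all genes, with a median of 0.44 against -0.14 over all genes. In Annapurna 7 of the 25 fell and none rose, and in IR64 10 fell and none rose. With quantile normalization 6 were again higher, and 5 or 6 were higher without any 1 array. With Annapurna control replicate 3 or IR64 42 °C replicate 3 left out, 1 member was lower.

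JAZ10 had 1126, 1064 and 989 in Annapurna at 42 °C and 3789, 3890.0 and 3417 in its control, against 227, 213 and 210.3 in IR64 at 42 °C and 3408, 4113 and 4850.2 in the IR64 control. It fell in both cultivars, the controls of the cultivars overlapped, and the IR64 arrays at 42 °C were the lowest. Its difference was 2.35 ± 0.16 (limma adjusted p = 1.25e-05), and a separate probe set of JAZ10 was also called higher.

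JAZ12 had 882, 824 and 718 in Annapurna at 42 °C and 1517, 1719 and 1515 in its control, and 194, 250.1 and 184 in IR64 at 42 °C and 2299.9, 2202 and 2784 in the IR64 control. Its fall was called in IR64 (-3.44) and missed the 2-fold size in Annapurna (-0.96), with a difference of 2.48 ± 0.18 (limma adjusted p = 1.95e-05). JAZ11 (1.58 ± 0.14), JAZ6 (1.45 ± 0.14) and AOS1 (1.33 ± 0.22), an allene oxide synthase gene of jasmonate synthesis, were higher as well. JAZ9 sat on the threshold at 1.00 ± 0.21 and lost its call without any 1 of 5 arrays: Annapurna control replicate 1, IR64 control replicate 3, Annapurna 42 °C replicate 3 (0.88, the lowest value) and 42 °C replicate 2 or 3 of IR64. It also lost it with 64 added (0.57) and with arrays centred on their medians (0.98). JAZ9, JAZ11 and JAZ10 lie side by side on chromosome 3 in the reference gene order.

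JAZ repressors did not all differ. JAZ13, which fell in both cultivars, stood at -0.53 ± 0.23 (limma adjusted p = 0.0725), JAZ1 at 0.23 ± 0.13 (limma adjusted p = 0.162), and JAZ7, also uncalled, at 0.38 ± 0.10. The probe sets of JAZ10 and JAZ6 carry the suffix for probes that match several transcripts.

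Of 5 WRKY transcription factor genes above the floor, 2 were higher and none lower, against 2.15% higher over all genes. OsWRKY71, a factor of the defence response, had 377, 342 and 425 in Annapurna at 42 °C and 2027, 1842 and 1697 in its control, against 124, 141 and 130.1 in IR64 at 42 °C and 1853, 1942 and 2432 in the IR64 control. It fell in both cultivars, further in IR64, and the difference was 1.58 ± 0.16 (limma adjusted p = 0.000154). OsWRKY24 stood at 1.43 ± 0.16, with 0.72 when 64 was added, which left 1 of the 5 called.

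Of 36 genes of metal transport and iron measured, 24 were above the floor, 5 of them higher and 1 lower, with a median of 0.10. Over all genes 2.15% were higher and 3.79% lower. The called members with the largest differences make or use the iron chelators of grasses. NAS1, a nicotianamine synthase gene, had 10647, 10492 and 10869 in Annapurna at 42 °C and 5687, 5949 and 5361 in its control, and 2118, 2091 and 2183 in IR64 at 42 °C and 9489, 9321 and 8716 in the IR64 control. It was higher on every heated Annapurna array than in the control and lower on every heated IR64 array, with responses of 0.91 (not called) and -2.10 and a difference of 3.01 ± 0.06 (limma adjusted p = 1.93e-08).

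NAS2, its neighbour on chromosome 3 with no gene between them, had 6647, 6585 and 7714 in Annapurna at 42 °C and 1384, 1385 and 1023 in its control, against 1464, 1547 and 1549.5 in IR64 at 42 °C and 2557, 2616 and 1920.2 in the IR64 control. Here the called change lay in Annapurna, and the difference was 3.08 ± 0.20 (limma adjusted p = 1.03e-05). NAAT1, the gene of the next enzyme of phytosiderophore synthesis, had 1389, 1453 and 1407 in Annapurna at 42 °C and 1917, 1850.1 and 1581 in its control, and 347, 305 and 313 in IR64 at 42 °C and 2489, 2297 and 1461 in the IR64 control. It fell in IR64, with a difference of 2.28 ± 0.24, and of 2.51 without IR64 control replicate 3, whose level was the lowest of its group.

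Nramp1, a metal transporter gene, had no called change in Annapurna and fell in IR64 (-1.51), with a difference of 1.51 ± 0.16. The iron-phytosiderophore transporter gene osysl15 rose in both cultivars, by 3.06 in Annapurna and 1.80 in IR64, a difference of 1.26 ± 0.14 that became 0.64 with 64 added. It was less intense in Annapurna in both states, and the cultivars were called apart in the controls only. It averaged 354 ± 28.0 in Annapurna at 42 °C and 28.2 ± 2.35 in its control. In IR64 it averaged 534 ± 19.0 at 42 °C and 143 ± 22.2 in the control. The zinc transporter gene OsZIP5 was the 1 member called lower, at -1.30 ± 0.14. NAS3 was not called, at -0.27 ± 0.10. Of 6 planned root marker genes 3 were measured, NAS1, osysl15 and the peroxidase gene PRX112. Their summed intensity, most of which is NAS1 itself, was 11232 to 11540 in Annapurna at 42 °C and 5476 to 6045 in its control, and 3283 to 3404 in IR64 at 42 °C and 8935 to 9765 in its control. PRX112 alone averaged 337 ± 34.1 in Annapurna at 42 °C and 83.1 ± 12.4 in its control, and 665 ± 12.4 in IR64 at 42 °C and 118 ± 14.3 in the IR64 control, with an uncalled difference of -0.51 ± 0.16, opposite in sign to that of NAS1. The part of root material in these results was not tested.

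**Figure D4:**
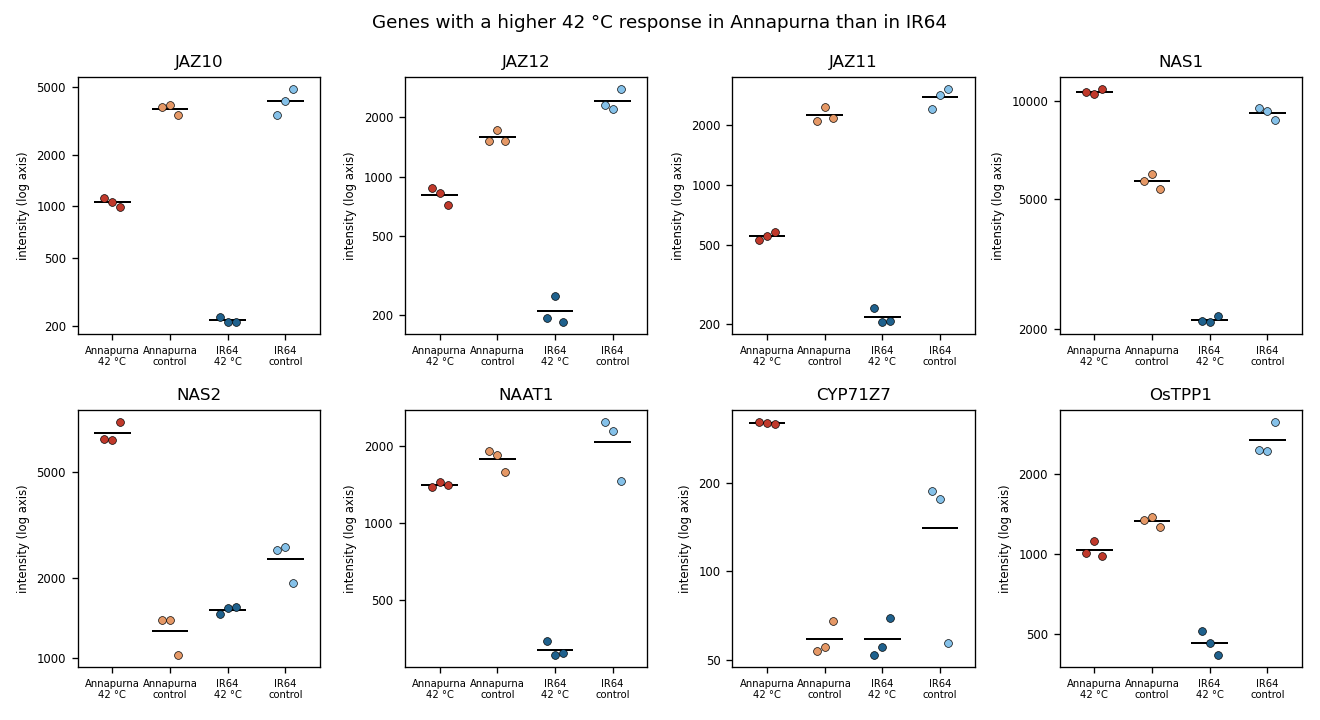
Intensity (log axis, a scale of its own in each panel) of 8 genes that responded higher in Annapurna, on each of the 3 arrays of Annapurna at 42 °C, Annapurna control, IR64 at 42 °C and IR64 control; points are arrays and lines are group means. NAS2 and CYP71Z7 stand highest in Annapurna at 42 °C, while JAZ10, JAZ11, JAZ12, NAS1, NAAT1 and OsTPP1 stand lowest in IR64 at 42 °C; for CYP71Z7, IR64 control replicate 3 lies apart from its group.

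A list of diterpenoid synthesis genes, some of them for the antimicrobial terpenes of rice, was made after CYP71Z7 was seen among the largest differences. Of 20 measured, 10 were above the floor, 5 of them higher and none lower, against 2.15% higher over all genes. The median was 0.96, and the lowest member was ks1, uncalled at -0.83. CYP71Z7, a cytochrome P450 of this pathway, had 322, 318 and 316 in Annapurna at 42 °C and 53.5, 55.3 and 67.6 in its control, against 51.8, 55.3 and 69.4 in IR64 at 42 °C and 187, 176 and 57.2 in the IR64 control. It rose in Annapurna, and the IR64 response of -0.93 was not called. Its difference was 3.10 ± 0.45 (limma adjusted p = 0.00114), and 3.58 without IR64 control replicate 3.

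CPS2, a copalyl diphosphate synthase gene, had 124, 132 and 88.0 in Annapurna at 42 °C and 25.4, 28.7 and 25.9 in its control, and 33.99, 42.3 and 28.5 in IR64 at 42 °C and 69.6, 61.4 and 23.2 in the IR64 control. It rose in Annapurna, and IR64 control replicate 3 was again the lowest of its group, with a difference of 1.93 ± 0.38 and of 2.28 without that array. KSL7 (1.02 ± 0.20), CYP99A2 (1.33 ± 0.43) and CYP701A8 (1.65 ± 0.39) were also higher. CPS2 and CYP71Z7 are neighbours on chromosome 2 with no gene between them, and KSL7 lies 2 genes from CYP71Z7. The count of 5 became 3 without IR64 control replicate 1, without IR64 control replicate 2 or without IR64 42 °C replicate 1, and KSL7 and CYP99A2 were the members lost. KSL7 also lost its call without Annapurna control replicate 2 (0.89). With 64 added 3 were called, CPS2 at 1.17, while KSL7 (0.75) and CYP99A2 (0.85) were not. CYP99A2 also missed the threshold with arrays centred on their medians.

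OsPHT3, a phosphate transporter gene by its name, had 121, 99.5 and 97.5 in Annapurna at 42 °C and 46.5, 41.9 and 55.2 in its control, and 83.6, 76.8 and 81.8 in IR64 at 42 °C and 294, 328 and 271 in the IR64 control. Its controls lay far apart, the IR64 control the more intense, and its heated groups were close, with a difference of 2.63 ± 0.15 (limma adjusted p = 4.21e-06). CYP714C2, a cytochrome P450 gene, was also much higher in the IR64 control, with 56.0 ± 13.3 in Annapurna at 42 °C and 43.7 ± 8.14 in its control, against 133 ± 23.6 in IR64 at 42 °C and 539 ± 50.1 in the IR64 control, and its difference was 2.17 ± 0.23.

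OsTPP1, a trehalose-6-phosphate phosphatase gene, had 1008, 1115 and 979 in Annapurna at 42 °C and 1347, 1373 and 1259.7 in its control, against 514, 463 and 417 in IR64 at 42 °C and 2462, 2436 and 3129.6 in the IR64 control. Its groups stood apart within each cultivar, the fall was called in IR64 only, and the difference was 2.13 ± 0.15 (limma adjusted p = 1.56e-05). OsTPP7, a phosphatase gene of the same family, stayed near background on every IR64 array and so lies outside the main account, while in Annapurna it fell to 834, 943 and 753 at 42 °C, against 2202, 2505 and 2086 in the control.

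RNC1, known from maize as a chloroplast splicing factor, rose in Annapurna by 1.42 and stood at -0.75 in IR64, a difference of 2.18 ± 0.16, with a separate probe set also called higher. GRXS9, a glutaredoxin gene (1.73 ± 0.12), CIPK21, a calcium-signalling kinase gene (1.73 ± 0.13), and HAK17, a potassium transporter gene (1.70 ± 0.19), fell in IR64 without a called change in Annapurna. The locus LOC4336109 had the largest positive difference of the genes known by number only, 3.45 ± 0.11, with 494, 525 and 461 in Annapurna at 42 °C and 545, 544 and 553 in its control, and 60.2, 68.7 and 56.5 in IR64 at 42 °C and 925, 999 and 845 in the IR64 control. LOC4347346 followed at 2.99 ± 0.25, rising in Annapurna (1.19) and falling in IR64 (-1.79).

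Among 20 aquaporin genes above the floor, 1 was higher and 2 lower, against 2.15% higher and 3.79% lower over all genes. OsPIP2;7 of the plasma membrane had 5186, 5063 and 4162 in Annapurna at 42 °C and 5365, 4968 and 5163 in its control, against 1906, 2209.6 and 2060.0 in IR64 at 42 °C and 5443, 6014 and 7054 in the IR64 control. It fell in IR64 and overlapped between the Annapurna groups, with a difference of 1.46 ± 0.15 (limma adjusted p = 0.000173). OsTIP2 of the vacuole stood at -1.11 ± 0.09, and the other lower member was the seed gene OsTIP3;1 described above. Without Annapurna control replicate 3, 4 aquaporin genes were lower.

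The calcium sensor gene CML16 stood far apart between the cultivars in both states, with 74.9, 86.4 and 56.7 in Annapurna at 42 °C and 273, 287 and 354 in its control, against 658, 762 and 587 in IR64 at 42 °C and 6583, 6085 and 6933 in the IR64 control. It fell in both, and the difference was 1.40 ± 0.20 (limma adjusted p = 0.00101). CML14 (-1.23 ± 0.25) and CML8 (-1.15 ± 0.12) were the 2 of 21 calmodulin and CML genes called lower. With 64 added 1 of 21 was, when CML14 stood at -0.95. Over all genes 3.79% were lower and 2.15% higher. CML16 was the 1 higher member, and there were 2 without Annapurna control replicate 2, IR64 control replicate 1, Annapurna 42 °C replicate 3 or IR64 42 °C replicate 2, and with quantile normalization.

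In nitrogen use, NIA1, a nitrate reductase gene, had 10148, 10445 and 10006 in Annapurna at 42 °C and 24536, 24913 and 25622 in its control, and 3333, 3249 and 2953 in IR64 at 42 °C and 15775, 16156 and 16399 in the IR64 control. It fell in both cultivars, further in IR64, and its difference of 1.04 ± 0.07 (limma adjusted p = 9.05e-06) was 0.99 without IR64 42 °C replicate 3, under the 2-fold size. The ammonium transporter gene AMT1 stood at -1.28 ± 0.13, and the glutamate synthase gene GLT2 at -1.001 ± 0.19, a call lost with 64 added (-0.78), with quantile normalization (-0.83) and without any 1 of 7 arrays: control replicate 1 or 2 of Annapurna, control replicate 2 of IR64, 42 °C replicate 1 or 2 of Annapurna, and 42 °C replicate 1 (-0.89) or 2 of IR64. In all, 1 of 10 nitrogen genes above the floor was higher and 2 were lower, against 2.15% and 3.79% over all genes.

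CCA1, the morning gene of the circadian clock, fell further in Annapurna, with 499, 479.7 and 535 at 42 °C and 14057, 12606 and 11889 in the control, against 574, 568 and 628 in IR64 at 42 °C and 6331, 6406 and 6442 in the IR64 control. The heated groups were close and the Annapurna control lay well above the IR64 control, and the difference was -1.22 ± 0.09 (limma adjusted p = 2.41e-05). The clock gene GI, an evening gene, stood at -0.70 ± 0.08, and OsPRR73 at 0.51 ± 0.06, neither at 2-fold. Of 6 clock genes 1 was called, against 5.94% over all genes.

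Single members were called lower in 4 further lists: EXPB7, an expansin gene of cell wall loosening (-1.28 ± 0.14), GST1, a glutathione S-transferase gene (-1.09 ± 0.18), the cyclin gene CYCP2-1 (-1.24 ± 0.14), and IAA25, an auxin response gene (-1.13 ± 0.13). With quantile normalization GST1 stood at -0.94 and IAA25 at -0.95, both short of the call, and GST1 was short of it without IR64 control replicate 3 as well (-0.92). With 64 added CYCP2-1 stood at -0.94 and IAA25 at -0.94, and 0 members of their lists were called. These were 1 of 17 expansin and XTH genes, 1 of 6 glutathione S-transferases, 1 of 74 cell division genes and 1 of 44 auxin response genes above the floor, against 3.79% lower over all genes.

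No member was called among 5 genes of the photosynthetic light reactions, 7 of the Calvin cycle, 7 of chlorophyll synthesis, 8 DREB and ERF factors and 5 NAC factors above the floor, with the exception of 1 NAC factor with quantile normalization. CAB2R, a light-harvesting protein gene, stood at -0.18 ± 0.06, and DREB2A, an activator of drought and heat genes, at -0.03 ± 0.17 (limma adjusted p = 0.872). Of the 8 DREB and ERF factors, 5 fell in Annapurna and 5 in IR64. PDX12, of the vitamin B6 synthesis family, fell by 4.32 in Annapurna and by 3.84 in IR64, and its difference of -0.48 ± 0.11 was under the 2-fold size, with a sign that depended on the added constant (0.34 with 1 and -0.92 with 64). The globulin gene GLB1 of the grain rose in both cultivars, with a difference of -0.70 ± 0.12 that was under that size too.

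**Figure D5:**
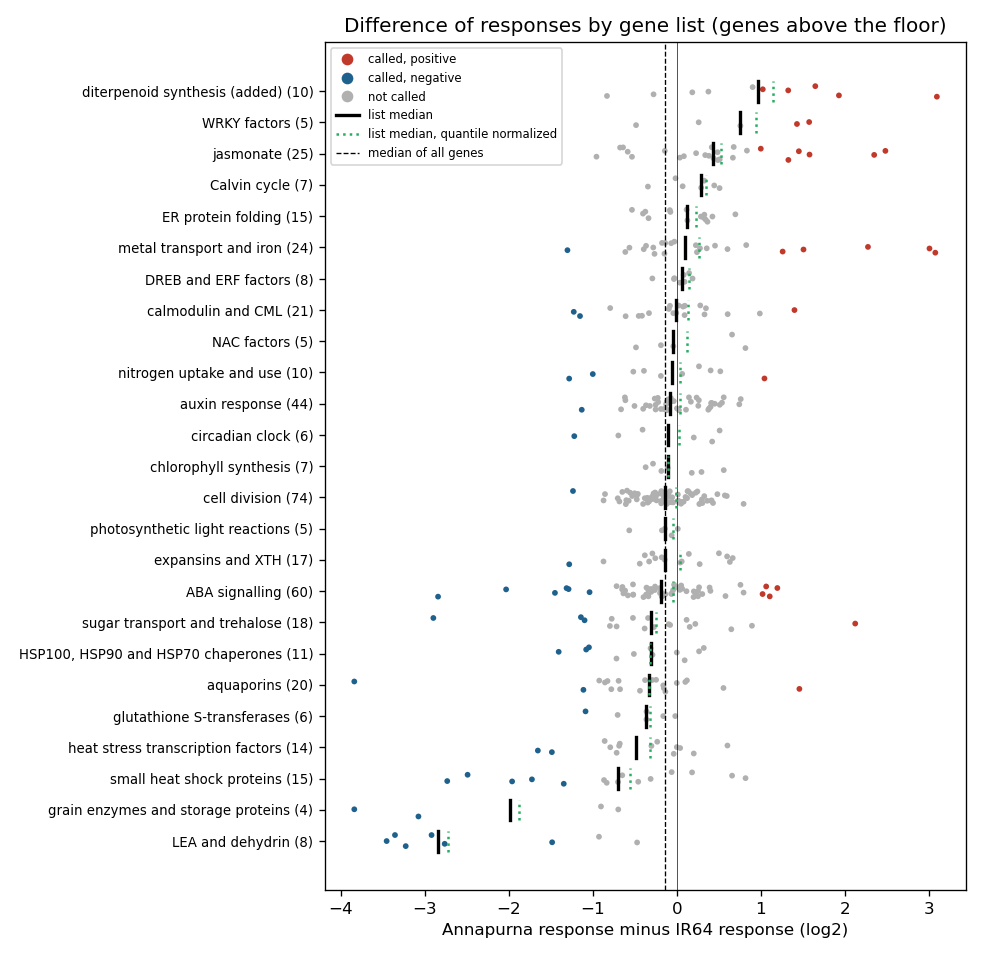
Difference of responses (Annapurna minus IR64, log2) of each gene above the floor, by list, with the number of such genes in brackets; red and blue points are called positive and negative differences, black bars the list medians, dotted green bars the medians with quantile normalization, and the dashed line the median of all genes at -0.14. The LEA and dehydrin list has the lowest median, -2.84, and the diterpenoid list, which was added after its values were seen, the highest, 0.96.

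Separate probe sets of a gene gave the same direction in most cases. Of the called genes above the floor, 87 had further probe sets above the floor, 101 in all, and of these 101 probe sets 83 had the same sign as the gene's representative, 33 were called in the same direction and 0 in the opposite one. Outside the floor, 443 more probe sets were called, 217 of them below the floor in Annapurna, 146 below it in IR64 and 80 below it in both.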

How the data were processed

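RNA from 18 seedling samples was hybridised to a rice expression array, and the 12 arrays of the 42 °C and control groups were used. The authors deposited 1 intensity per probe set and array, with the software GCOS named in the submitters' processing notes. Their summarisation and scaling are not given in the sources used here. Of 57381 probe sets, 123 array controls were left out. From the deposited intensities, log2(intensity + 16) was fitted with limma 3.58.1 in R 4.3.3 (lmFit, contrasts.fit, eBayes with trend; 4 group means, 8 residual degrees of freedom), with Benjamini-Hochberg adjustment over the 57258 probe sets of each contrast. The fit was tested on simulated data. Tables and figures were made with Python 3.11.15, pandas 2.3.3, numpy 2.4.6 and matplotlib 3.10.9.

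A probe set was named from the platform annotation where that gave exactly 1 gene. Among the probe sets of named genes, 15 carry the suffix s and 2 the suffix x. Both suffixes mark probes that can match several transcripts, and not every such gene is pointed out above. Of the tested probe sets 95 had several genes and 34727 none, and 17905 genes were represented, 2452 with a name other than a number. Symbols and gene order came from a RefSeq gene table of assembly ASM3414082v1, whose build need not be that of the array design. Sequences were not used here.

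Named genes are the 14 largest positive and 14 largest negative called differences above the floor, up to 2 called members each way and the most intense uncalled member of each list, 2 locus numbers each way and a few chosen whatever their result; called members of the LEA, small heat shock protein, jasmonate, iron, diterpenoid and ABA lists were added to complete those lists. The gene lists, matched by name patterns, and the comparison itself were chosen with earlier results of these data known. With 3 arrays against 3 a permutation test of 1 value cannot give a p under 0.1, so p-values come from the fit over all probe sets. The alternatives tried were quantile normalization, centring, other added constants and floors, no variance trend, all 18 arrays, a replicate block, no fold threshold and leaving out each array.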

Additional observations from a re-analysis of the deposited data

Results flagged for a closer look

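The responses of the 2 cultivars differed by the test of the difference itself (limma, adjusted over all probe sets, with at least a 2-fold size) in each gene below, given as the log2 response of Annapurna minus that of IR64. About 6.36% of all probe sets above the floor met the same call, and 3% of all probe sets tested. AMY1.1, AMY1.3, HSP18.1, HSFA2A and OsTPP7 lay below the floor in a cultivar or in both.

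Among LEA, dehydrin and grain genes the difference was -3.46 for RAB16B, -3.36 for rab25, -3.23 for RAB16C, -2.92 for RAB21, -2.77 for OsPM19L1, -1.49 for LEA19, -3.84 for OsTIP3;1, -3.08 for LTP-2, -6.29 for AMY1.1 and -2.15 for AMY1.3. In AMY1.1, IR64 control replicate 3 lay far from the other controls.

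Among chaperones and heat stress factors it was -5.71 for HSP18.1, -2.73 for HSP26.7, -2.49 for HSP16.9B, -1.96 for HSP23.2, -1.73 for HSP18.6, -1.35 for HSP17.7, -1.41 for CLPD1, -1.08 for CLPC2, -1.05 for CLPB1, -1.66 for HSFB2A, -1.49 for HSFA6B and -1.003 for HSFA2A. The HSP18.1 value rests on an Annapurna signal near background in both states.

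Other negative differences were -4.27 for ELA3, -4.36 for LOC4345700, -3.70 for LOC4332481, -2.90 for OsSWEET15, -2.84 for OsPP2C30, -2.83 for the pyruvate dehydrogenase gene LOC4340640, -2.71 for PXG, -2.03 for OsPP2C09, -1.39 for OsTPP7, -1.30 for OsZIP5, -1.28 for AMT1, -1.28 for EXPB7, -1.24 for CYCP2-1, -1.23 for CML14, -1.22 for CCA1, -1.15 for CML8, -1.14 for OsSWEET2b, -1.13 for IAA25, -1.11 for OsTIP2, -1.09 for GST1 and -1.001 for GLT2. The OsTPP7 value rests on an IR64 signal near background in both states.

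Positive differences of jasmonate, WRKY, iron and diterpenoid genes were 2.48 for JAZ12, 2.35 for JAZ10, 1.58 for JAZ11, 1.45 for JAZ6, 1.00 for JAZ9, 1.33 for AOS1, 1.58 for OsWRKY71, 1.43 for OsWRKY24, 3.08 for NAS2, 3.01 for NAS1, 2.28 for NAAT1, 1.51 for Nramp1, 1.26 for osysl15, 3.10 for CYP71Z7, 1.93 for CPS2, 1.65 for CYP701A8, 1.33 for CYP99A2 and 1.02 for KSL7.

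Other positive differences were 3.45 for LOC4336109, 2.99 for LOC4347346, 2.63 for OsPHT3, 2.18 for RNC1, 2.17 for CYP714C2, 2.13 for OsTPP1, 1.73 for GRXS9, 1.73 for CIPK21, 1.70 for HAK17, 1.46 for OsPIP2;7, 1.40 for CML16, 1.198 for OsPP2C61, 1.11 for OsPP2C12 and 1.04 for NIA1. The 4 probe sets without a single gene name stood at 7.00 for Os.17916.1.S1_at, 6.19 for Os.28427.1.S1_x_at, -3.78 for Os.12452.1.S1_s_at and -3.36 for Os.11112.1.S1_s_at.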

How the results depend on the processing

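The count of 1273 differences of responses was 817 (329 higher, 488 lower) with 64 added in place of 16, 10000 (3293 higher, 6707 lower) with no fold threshold and 1716 without the floor. With quantile normalization it was 1184, 658 higher and 526 lower (55.57% higher, against 38.1% as reported). That scaling also turned the splits of 2 other comparisons: 1387 probe sets rose and 1641 fell in IR64 (45.81% rose, against 56.75%), and 596 were higher and 663 lower in the Annapurna control than in the IR64 control (47.34% higher, against 59.21%). With no fold threshold the Annapurna response was called at 11561 probe sets, the IR64 response at 14505, the cultivar difference in the controls at 11958 and that at 42 °C at 7429. Without the floor the difference in the controls was called at 2032 probe sets and that at 42 °C at 1919, and with 64 added the difference in the controls was called at 855. Leaving out any 1 array gave 1198 to 1422 differences of responses, 2315 to 2430 Annapurna responses, 3009 to 3258 IR64 responses, 1090 to 1137 differences at 42 °C and 1213 to 1421 in the controls. Of 110 single-gene and probe-set results, 13 lost their call with 64 added, 6 with quantile normalization, 2 with centring and 1 with 1 added, 20 gained one with no fold threshold, and no called one turned sign. The replicate numbers did not pair the arrays: over 18 same-numbered pairs the correlation of deviations ran from -0.25 to 0.21, 5 were over 0.1, 5 of 12 arrays correlated best with their own number, and a fit with the replicate number as a block called 1276 differences (486 higher, 790 lower). With 3 arrays a group and unstated summarisation, low intensities limit what can be compared: 443 called probe sets lay below the floor in a cultivar. The causes of these movements were not tested.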

Other observations

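Some of the furthest differences of responses lay in probe sets that the annotation ties to no single gene. Of 4658 such probe sets above the floor, 121 were higher and 212 lower in Annapurna. These shares are near those over all probe sets above the floor, 2.42% higher and 3.94% lower. The 4 described here were chosen after their values were seen, and the annotation used here gives them no single gene.

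Os.17916.1.S1_at had 47718, 47587 and 48755 in Annapurna at 42 °C and 45287, 46304 and 44448 in its control, against 212, 185 and 247 in IR64 at 42 °C and 32049.6, 33929 and 19454 in the IR64 control. It was high on every array of the other groups and low on every IR64 array at 42 °C, with a difference of 7.00 ± 0.26 (limma adjusted p = 3.62e-07). On the 37 °C arrays it had 38759.6, 39692 and 40594 in Annapurna and 12097, 12065 and 11424 in IR64.

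Os.28427.1.S1_x_at had 1281, 1319.9 and 1441 in Annapurna at 42 °C and 65.9, 223 and 251 in its control, and 8.83, 8.74 and 9.43 in IR64 at 42 °C and 420.3, 337 and 65.6 in the IR64 control. Its difference was 6.19 ± 0.85 (limma adjusted p = 0.000851). Control replicate 3 of IR64 and control replicate 1 of Annapurna lay far below the others of their groups. Leaving out any 1 array gave 5.65 to 6.94.

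Os.12452.1.S1_s_at had 36.8, 59.8 and 38.3 in Annapurna at 42 °C and 60.5, 63.6 and 49.7 in its control, against 947, 991 and 1029 in IR64 at 42 °C and 60.6, 62.0 and 105 in the IR64 control, with a difference of -3.78 ± 0.27. Os.11112.1.S1_s_at had 17.4, 21.3 and 17.4 in Annapurna at 42 °C and 81.6, 77.6 and 58.2 in its control, against 139.5, 155 and 143 in IR64 at 42 °C and 19.0, 30.5 and 23.2 in the IR64 control, with a difference of -3.36 ± 0.19, and of -1.97 with 64 added. In both, the IR64 arrays at 42 °C and its controls stood apart without overlap.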
